A study of Mus musculus with 6 samples.

Results

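The 2 mature arms of mouse miR-21, miR-21a-5p and miR-21a-3p (listed as mmu-miR-21a-5p and mmu-miR-21a-3p), were followed in primary dermal fibroblasts with and without constitutively active Nrf2. They were taken by name from the 1907 mature miRNAs listed in each count table, and both passed the filter on low counts with 695 other miRNAs. The fibroblasts came from newborn mice on a mixed background of 50% C57Bl/6 and 50% FVB/N, were grown for 6 days and were collected at passage 1. In the caNrf2 group (genotype Col1a2Cre-caNrf2, 3 libraries) a Cre recombinase under the Col1a2 promoter, a collagen gene promoter active in fibroblasts, accompanied a constitutively active mutant of Nrf2, the transcription factor of antioxidant and detoxification genes. In the ctrl group (Col1a2Cre-wt, 3 libraries) the mice carried the same Cre without the constitutively active Nrf2 mutant. The study used 3 mice for each group of 3 libraries, although no label ties a library to its mouse. Both groups carry the Cre, and cells in which the Col1a2 promoter is silent would not switch on the mutant.

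A miRNA precursor folds into a hairpin, and its stem gives a 5p and a 3p strand. Usually 1 of these, the guide, is kept in the Argonaute protein and pairs through its seed, bases 2 to 8, with messenger RNAs, while the other, the passenger, is mostly lost. miR-21-5p is among the most abundant miRNAs of cultured and injured connective tissue. It is induced by TGF-beta signalling and AP-1, represses the tumour suppressor gene Pdcd4 and the growth factor signalling inhibitor Spry1, and is widely described as a promoter of fibrosis. The 3p strand is a passenger in most tissues, although cardiac fibroblasts have been reported to release it in exosomes.

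The sequences of both arms and of 2 near copies of the guide are shown because seed and sequence decide which counts can be told apart. They are RefSeq sequences for the GRCm38.p6 build, the assembly that mm10 also names, with the seed in capitals.
miR-21a-5p: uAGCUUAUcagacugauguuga
miR-21a-3p: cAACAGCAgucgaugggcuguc
miR-21b: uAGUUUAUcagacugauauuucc
miR-21c: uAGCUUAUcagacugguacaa

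Both arms have 22 bases and come from the single precursor Mir21a on the minus strand at chr11:86584067-86584158, the 5p arm from 86584120 to 86584141 and the 3p arm from 86584082 to 86584103. In the GENCODE M21 annotation the 92-base hairpin lies inside the last exon of Vmp1, an autophagy gene on the same strand, within the untranslated stretch from 86583865 to 86585310. The 5p arm occupies hairpin bases 18 to 39 and the 3p arm bases 56 to 77, with 16 bases between them. The letters CAGAC, the element that Smad proteins are reported to bind in the human miR-21 primary transcript, occur once in the hairpin, starting at base 26 inside the 5p arm. On the transcript strand, 80 of 1005 mouse hairpins in the sequence table (7.96%, median length 79 bases) hold these letters.

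Seeds were compared over the 1623 of 1907 listed names that had a RefSeq mature sequence, and the remaining names were not compared. Among those compared, no other miRNA had the seed of the 3p arm, and miR-21c alone shared that of the 5p arm. miR-21c, from chromosome 8, matches miR-21a-5p over its first 15 bases and then differs at A16G, G18A, U19C, U20A and G21A, counted from the 5′ end with the miR-21a-5p base first. miR-21b, from chromosome 3, differs at C4U, which changes the seed, and at G18A, G21U and A22C. Both were rare, miR-21b with 318 counts over the caNrf2 libraries and 183 over the ctrl libraries and miR-21c with 29 and 18. How reads matching several of these sequences were counted is not given in the sources used here, so the separate levels of the near copies are uncertain. No library had more than 137 counts of miR-21b or fewer than 1141808 of miR-21a-5p. The level of miR-21b did not pass the test (log2 fold change 0.29 ± 0.15 SE, edgeR adjusted p = 0.199), and miR-21c was too rare to be tested.

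Library totals ran from 10443268 to 28237159 counts, between 1050 and 1200 names had at least 1 count in a library, and all 6 file headers name the same sequencing lane. Of 7 mesenchymal marker miRNAs, all were counted in every library, with sums of 168555 to 171974 CPM (counts per 1000000 counts of the library) in caNrf2 and 174736 to 177753 in ctrl libraries. Of 7 epithelial markers, also counted in every library, the sums were 1661 to 2098 CPM in caNrf2 and 1034 to 1854 in ctrl libraries. In both groups the mesenchymal sum exceeded those of the other cell types. Of the 7 mesenchymal markers, 4 were called lower in caNrf2 and none higher, where 11.6% of all tested miRNAs were called lower. miR-143-3p and miR-145a-5p had positive log2 fold changes of 0.28 and 0.31 that were not called (edgeR adjusted p = 0.0512 and 0.0602). miR-214-3p, at -0.27, was not called either. The sums of 5 leukocyte markers were 339 to 392 CPM in caNrf2 and 203 to 259 CPM in ctrl libraries. Of these markers 3 were called higher, where 14.1% of all tested miRNAs were: miR-142a-3p, miR-142a-5p and miR-223-3p had log2 fold changes of 1.74, 1.85 and 1.90 (adjusted p at most 7.90e-04 by edgeR). miR-155-5p (0.05) and miR-150-5p (-0.10) were not called. The sums of 3 erythroid markers were 514 to 583 CPM in caNrf2 and 350 to 408 CPM in ctrl libraries. Those of 5 neural and melanocyte markers were 45.4 to 54.3 CPM in caNrf2 and 30.4 to 36.3 CPM in ctrl libraries. Called higher were 1 of 3 erythroid and 2 of 4 tested neural and melanocyte markers, and none was called lower. The sums of 2 endothelial markers overlapped between the groups, and neither was called. The part of any of these markers in the results below was not tested. The labels record no activating treatment such as TGF-beta, and no messenger RNA was measured. Activation of these fibroblasts was therefore not assessed.

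miR-21a-5p was a dominant miRNA of both groups and did not differ detectably between them. It had 1335864, 2872892 and 3340288 counts in caNrf2 libraries 1, 2 and 3, or 9.73%, 11.9% and 11.8% of all counts, against 1141808, 1721330 and 2233996 counts in ctrl libraries 1, 2 and 3, or 10.9%, 10.5% and 10.8%. caNrf2 library 1 held the lowest share of the 6 and the other caNrf2 libraries the highest, so the ctrl values lay inside the caNrf2 range. The mean share was 11.1% ± 1.23 in caNrf2 and 10.7% ± 0.249 in ctrl fibroblasts (SD, n = 3 each; two-sided exact permutation p = 0.6, where 3 against 3 libraries allow no p below 0.1). Counting error was far smaller than these differences. The 95% Wilson interval of the share in caNrf2 library 1 ran from 9.71% to 9.74%.

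Scaled by TMM, a factor that aligns most miRNAs between libraries, miR-21a-5p averaged 110875 ± 14879 CPM in caNrf2 and 108338 ± 3109 CPM in ctrl fibroblasts (SD, n = 3 each). The log2 fold change was 0.03 ± 0.12 (SE; edgeR quasi-likelihood adjusted p = 0.861). On the linear scale this is a ratio of 1.02 with a 95% interval from 0.857 to 1.22. Among 697 tested miRNAs 348 had a lower and 348 a higher log2 fold change, so miR-21a-5p itself held the median. Neither arm was among the 179 miRNAs called at an adjusted p under 0.05 (25.7% of those tested, with 98 or 14.1% higher and 81 or 11.6% lower in caNrf2). The groups overlapped for both arms, whereas 41.6% of tested miRNAs had no overlap. With RLE factors, upper-quartile factors or DESeq2, and without caNrf2 library 2, caNrf2 library 3 or ctrl library 2, the sign of the miR-21a-5p change was negative. Over all alternatives its size was largest without caNrf2 library 1, at 0.134 on the log2 scale.

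**Figure D1:**
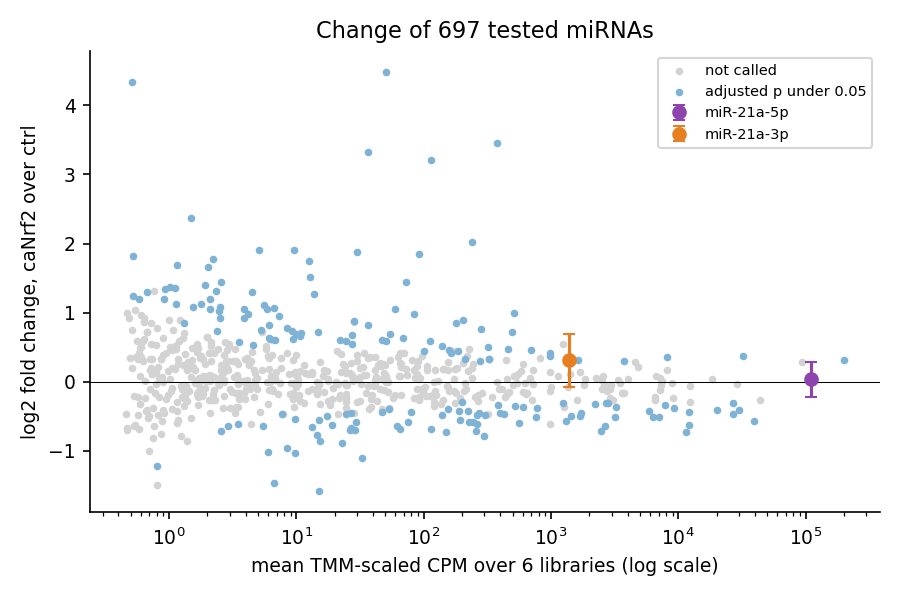
Log2 fold change of caNrf2 over ctrl (y axis) against the mean TMM-scaled CPM over the 6 libraries (x axis, log scale) for 697 tested miRNAs, each 1 point, with those at an edgeR adjusted p under 0.05 in blue. The miR-21a-5p point (purple, 0.03) lies on the median of all changes at the far right, and miR-21a-3p (orange, 0.31) lies above it; the bars are 95% intervals and both cross 0.

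By level, miR-21a-5p had rank 2 of all miRNAs in every library except caNrf2 library 1, where it had rank 3. miR-22-3p, the most abundant miRNA, averaged 221357 ± 7086 CPM in caNrf2 and 178081 ± 2354 CPM in ctrl fibroblasts, and stood above miR-21a-5p in all 6 libraries. miR-143-3p, a miRNA of contractile and mesenchymal cells, came next with 102572 ± 3077 CPM in caNrf2 and 84270 ± 5125 CPM in ctrl fibroblasts, and exceeded miR-21a-5p in 1 library. In the caNrf2 group the gap between miR-21a-5p and miR-143-3p was smaller than the miR-21a-5p SD. In the ctrl group it was larger than either SD. let-7i-5p, at rank 4, stayed below miR-21a-5p in every library.

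At the mean log2 ratio over all libraries there were 81.0 counts of miR-21a-5p per count of miR-21a-3p. This passenger arm was far rarer and more variable. It had 16767, 43588 and 44422 counts in caNrf2 libraries 1, 2 and 3, or 1176, 1811 and 1590.0 TMM-scaled CPM, against 14542, 15374 and 27498 counts in ctrl libraries 1, 2 and 3, or 1401, 936 and 1358 CPM. caNrf2 libraries 2 and 3 were the highest and ctrl library 2 the lowest, while caNrf2 library 1 lay below ctrl libraries 1 and 3. The mean was 1526 ± 322 CPM in caNrf2 and 1231 ± 257 CPM in ctrl fibroblasts (SD, n = 3 each), a log2 fold change of 0.31 ± 0.17 (SE) that did not pass the test (edgeR adjusted p = 0.224). The ratio of 1.24 had a 95% interval from 0.947 to 1.62, so a rise of that size could not be told from none.

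As a share of all counts, miR-21a-3p held 0.153% ± 0.0294 in caNrf2 and 0.122% ± 0.0249 in ctrl fibroblasts (SD, n = 3 each; two-sided exact permutation p = 0.3). The log2 fold change depended on single libraries. It was 0.14 without ctrl library 2 (edgeR adjusted p = 0.597), 0.15 without caNrf2 library 2 (0.602) and 0.46 without caNrf2 library 1 (0.0906). Over all alternatives the adjusted p ran from 0.0244 to 0.602, and only the edgeR fit with no filter on low counts passed the threshold. Its rank by counts lay between 60 and 69 in caNrf2 libraries and between 69 and 77 in ctrl libraries. Beside it by mean level stood let-7b-5p and miR-23a-3p above and miR-301a-3p and miR-214-5p below, each of which stood above miR-21a-3p in 3 or 4 libraries, so the order of these neighbours did not hold beyond their spread.

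**Figure D2:**
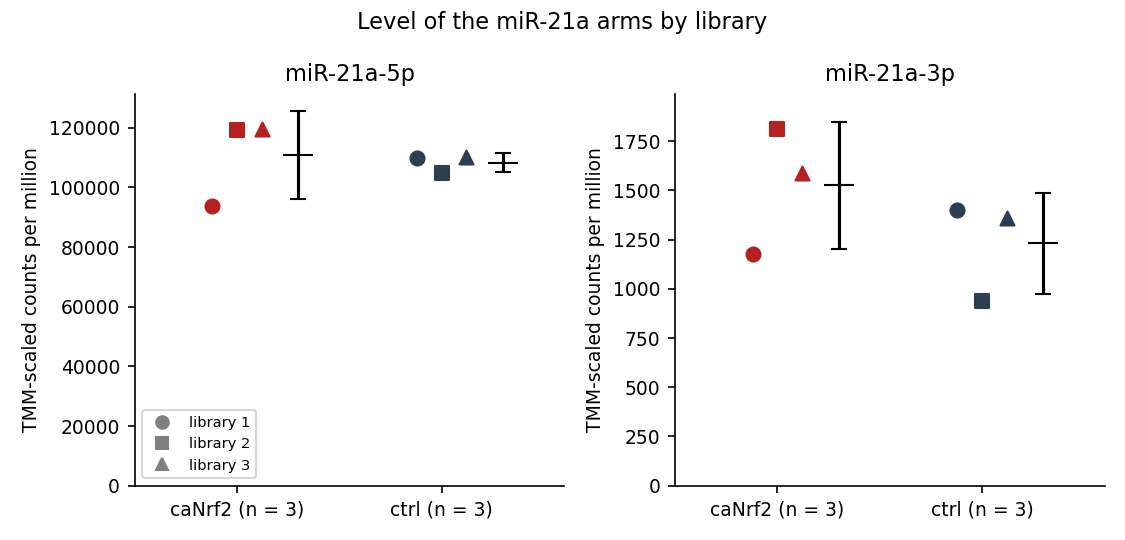
TMM-scaled CPM (y axis, from 0) of miR-21a-5p (left) and miR-21a-3p (right) in each caNrf2 and ctrl library; marker shape gives the library number and black bars the mean ± SD (n = 3 each). The 5p arm averaged 110875 CPM in caNrf2 and 108338 CPM in ctrl, with caNrf2 library 1 at 93695, and ctrl library 2 was the lowest for the 3p arm at 936 CPM.

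Comparing the arms within a library needs no scaling between libraries. There were 79.7, 65.9 and 75.2 counts of miR-21a-5p per count of miR-21a-3p in caNrf2 libraries 1, 2 and 3, against 78.5, 112 and 81.2 in ctrl libraries 1, 2 and 3. ctrl library 2 stood alone at the high end, and caNrf2 library 1 lay between ctrl libraries 1 and 3, so the groups overlapped. The 3p arm accordingly made up 1.35% ± 0.131 of the counts of both arms in caNrf2 and 1.12% ± 0.204 in ctrl fibroblasts (SD, n = 3 each). The log2 ratio of 5p to 3p averaged 6.20 ± 0.140 in caNrf2 and 6.48 ± 0.282 in ctrl fibroblasts (two-sided exact permutation p = 0.2).

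In a limma fit over 211 precursors with both arms tested, the log2 ratio of miR-21a was lower by 0.28 in caNrf2, with an SE of 0.13 and a 95% interval from -0.55 to -0.02. The unadjusted p of 0.0362 became 0.318 after Benjamini-Hochberg adjustment. No pair was called (0% of 211), while 25 pairs (11.8%) had an unadjusted p under 0.05 and 22 of them a smaller one than miR-21a, and edgeR on the arm counts also called 0. The groups did not overlap for 35 pairs (16.6%), and miR-21a was not among these. Without ctrl library 2 the change of miR-21a was -0.12 (limma adjusted p = 0.663), and over all alternatives the adjusted p ran from 0.0996 to 0.663.

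The excess of the guide was strong but not extreme. The mean log2 ratio of 5p to 3p over the 6 libraries was 6.34, whereas the median excess of the more abundant arm over all 211 pairs was 3.45, and 41 pairs were more unequal than miR-21a. The other 4 of the 5 pairs with the most counts were miR-22, miR-143, miR-10b and let-7i. At their mean log2 ratios over all libraries, the more abundant arm had 2489, 1507, 1485 and 918 counts per count of its partner. The minor arm of miR-21a thus made up a larger part of its pair than those of the other 4 did. None of them passed as changed between the groups, and let-7i had the nearest values to miR-21a, a change of -0.32 with a limma adjusted p of 0.318.

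Whether ctrl library 2 departed in other precursors was described over the 100 pairs with at least 100 counts of each arm in each library. The median departure of the major-to-minor log2 ratio from the group mean was -0.01 in ctrl library 2, and between -0.02 and 0.01 in the others. In ctrl library 2 the log2 ratio of miR-21a departed upward by 0.32, and 0 of the 100 pairs had a larger upward departure in that library. Downward departures were not counted, and some were of larger size. The log2 ratio of let-7b, for example, was 4.64 in ctrl library 2 against a ctrl mean of 4.98. Of the 100 pairs, 41 had their highest ratio of the ctrl group in ctrl library 2, against 31 in ctrl library 1 and 28 in ctrl library 3.

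**Figure D3:**
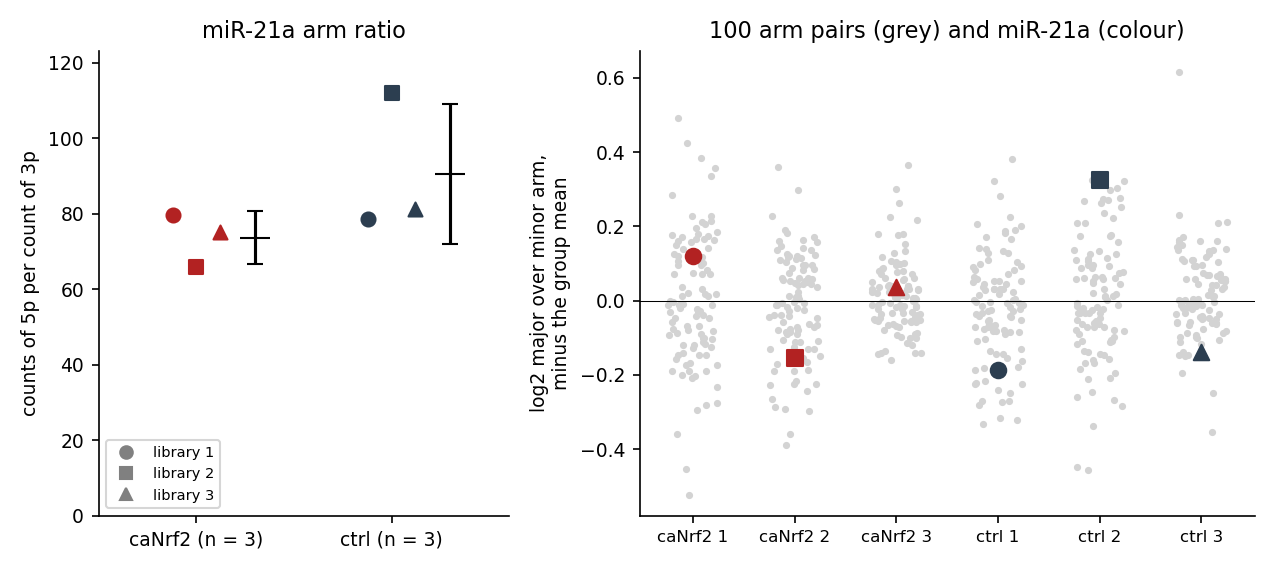
Left, counts of miR-21a-5p per count of miR-21a-3p in each library (y axis from 0), with the mean ± SD in black (n = 3 each). Right, log2 ratio of the major to the minor arm minus its group mean for 100 arm pairs (grey points) and miR-21a (coloured) in each library. miR-21a tops all pairs in ctrl library 2 at 0.32 and lies within them elsewhere.

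The spread between libraries took different forms in the 2 arms. miR-21a-5p had an SD of log2 CPM of 0.202 in caNrf2 and 0.0417 in ctrl libraries, beside medians of 0.10 in caNrf2 and 0.109 in ctrl libraries over the 194 miRNAs that averaged 100 CPM or more. Of those 194, 26 varied more in the caNrf2 group and 172 varied more in the ctrl group. The ratio of the SDs was 4.85, and 6 of the 194 had a larger one. The caNrf2 spread came from library 1 at 93695 CPM, the other caNrf2 libraries lying at 119371 and 119559 CPM. With 3 libraries a group, the difference in spread was given as a description and not tested.

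miR-21a-3p varied about equally in both groups and more than most of the 194 miRNAs that averaged 100 CPM or more. Its SD of log2 CPM was 0.320 in caNrf2 and 0.324 in ctrl libraries, and 6 and 5 of the 194 miRNAs varied more. In edgeR's terms its biological coefficient of variation was 16.0%, against a trend of 10.6% at its level, while that of miR-21a-5p was 9.92%, close to its trend of 9.89%.

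**Figure D4:**
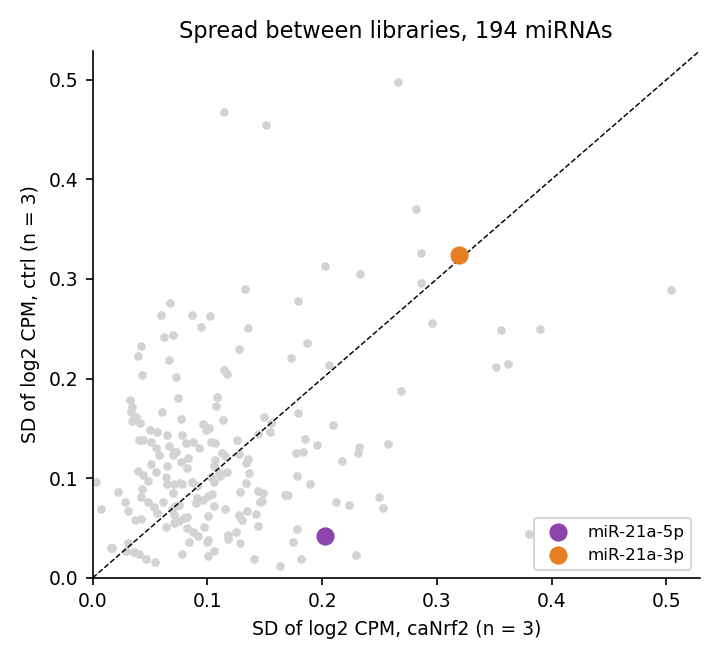
SD of log2 CPM over the 3 caNrf2 libraries (x axis) and the 3 ctrl libraries (y axis) for the 194 miRNAs averaging 100 CPM or more (grey), with miR-21a-5p in purple, miR-21a-3p in orange and equal SDs on the dashed line. miR-21a-5p lies far below the line (0.202 and 0.0417), and miR-21a-3p lies on it near the upper end of both axes (0.320 and 0.324).

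The arms also differed in which miRNAs they resembled. Likeness was the root mean square difference of log2 CPM, centred on its mean, over the 6 libraries, among the 193 other miRNAs that averaged 100 CPM or more. Nearest to miR-21a-5p were miR-181d-5p (0.0498), miR-101b-3p (0.0566) and miR-192-5p (0.0648), where the median of all candidates was 0.220. Nearest to miR-21a-3p were miR-182-5p (0.0700), known from epithelial and sensory cells, miR-29b-3p (0.123), a repressor of collagen genes, and miR-19a-3p (0.135), of the miR-17-92 cluster, with a median of 0.364. The other arm of the same hairpin was 107th for miR-21a-5p and 16th for miR-21a-3p, at 0.231. Values were not scaled for the size of the swings, so these ranks depend on range as well as on pattern. Both arms were lowest in caNrf2 library 1 within their group and in ctrl library 2 within theirs, but the 3p arm moved over a wider range.

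Of the 7 epithelial markers, the summed level, with no TMM scaling, was 1661, 2063 and 2098 CPM in caNrf2 libraries 1, 2 and 3, and 1854, 1034 and 1217 CPM in ctrl libraries 1, 2 and 3. Like both arms of miR-21a, this sum was lowest in caNrf2 library 1 within its group and in ctrl library 2 within its group. The sum was highest in caNrf2 library 3, whereas miR-21a-3p was highest in caNrf2 library 2. None of the 7 passed as changed between the groups. Their part in the values of either arm was not tested.

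**Figure D5:**
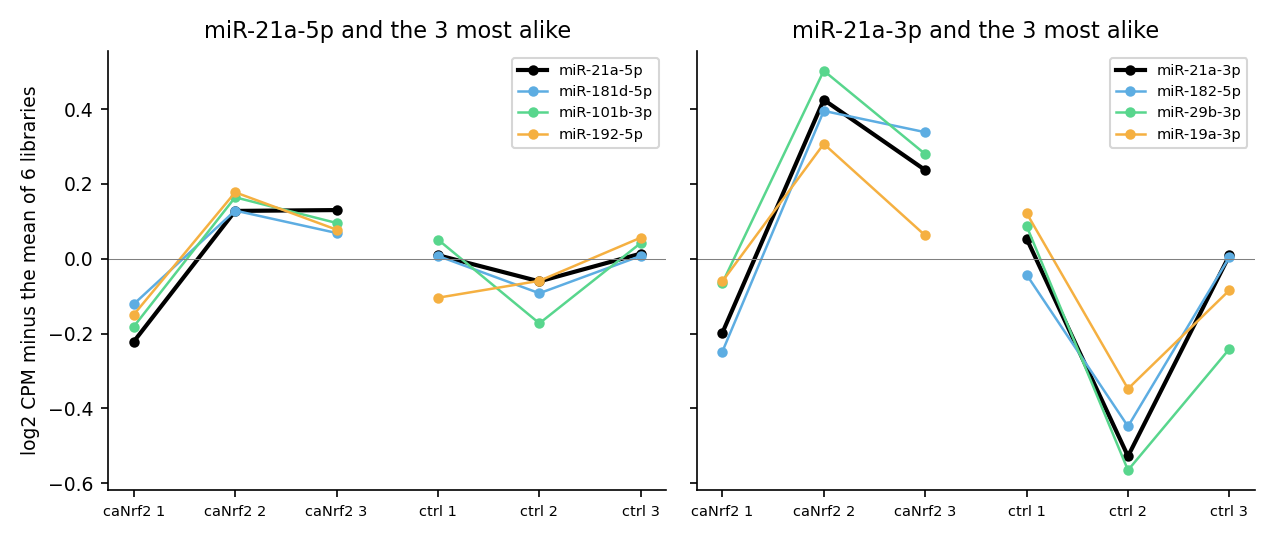
Log2 CPM minus the mean of the 6 libraries (y axis) by library (x axis) for miR-21a-5p (left) and miR-21a-3p (right), in black. The 3 miRNAs with the smallest root mean square difference from each arm are in colour. Lines join libraries of 1 group only to aid the eye. The 3p panel shows the wider swings, with ctrl library 2 at -0.53 and caNrf2 library 2 at 0.43.

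The miRNAs usually named with miR-21 in fibrosis gave no shared direction. Of 12 tested miRNAs reported to promote fibroblast activation or fibrosis, 1 rose and 3 fell in caNrf2 fibroblasts, with a median log2 fold change of 0.02 beside 0.03 over all tested miRNAs. Levels of single miRNAs are mean TMM-scaled CPM. miR-328-3p rose to 375 CPM in caNrf2, against 264 CPM in ctrl, which was 0.51 on the log2 scale (adjusted p = 0.00247 by edgeR). miR-199a-5p, a repressor of caveolin-1, fell to 5849 CPM in caNrf2, against 8305 CPM in ctrl (log2 fold change -0.51, adjusted p = 0.00269 by edgeR). It is also 1 of the 7 mesenchymal markers, of which miR-199a-3p (-0.41), miR-10b-5p (-0.56) and miR-152-3p (-0.48) fell too, and their part in this result was not tested. miR-503-5p fell to 5.73 CPM in caNrf2, against 11.2 CPM in ctrl (log2 fold change -0.96, adjusted p = 0.00129 by edgeR). The third that fell, miR-125b-5p, had a log2 fold change of -0.38 (adjusted p = 0.0299 by edgeR), and its call was lost without any one caNrf2 library or without ctrl library 2 (adjusted p between 0.0595 and 0.0689). Its log2 fold change was -0.39, -0.38 and -0.41 without caNrf2 libraries 1, 2 and 3, and -0.24 without ctrl library 2. When an average of 10 CPM or more was required, 4 of 11 rose and 2 fell. Under that filter 60 of 371 tested miRNAs were called higher and 71 lower. Of the miRNAs reported to restrain fibrosis, 3 of 14 then rose and 3 fell.

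Of 15 tested miRNAs reported to restrain fibrosis, 3 rose and 3 fell, with a median log2 fold change of 0.17. miR-29c-3p, which like its family represses collagen genes, rose to 111 CPM in caNrf2, against 56.4 CPM in ctrl (log2 fold change 0.97, adjusted p = 2.28e-04 by edgeR). miR-133a-3p, a repressor of connective tissue growth factor, rose to 614 CPM in caNrf2, against 371 CPM in ctrl (log2 fold change 0.72, adjusted p = 0.00145 by edgeR). It is also 1 of 4 muscle markers. Their summed level with no TMM scaling was 566 to 715 CPM in caNrf2 and 334 to 412 CPM in ctrl libraries. miR-133a-3p itself gave most of that sum, with 41828 counts in caNrf2 and 17748 in ctrl libraries. The next muscle marker, miR-206-3p, had 518 and 177. All 3 tested muscle markers were called higher, where 14.1% of all tested miRNAs were. The part of the other muscle markers in this result was not tested. miR-29a-3p rose by less (log2 fold change 0.36, adjusted p = 0.0106 by edgeR). miR-30c-5p fell to 1395 CPM in caNrf2, against 1961 CPM in ctrl (log2 fold change -0.49, adjusted p = 8.16e-04 by edgeR). miR-30b-5p (-0.36, adjusted p = 0.0164 by edgeR) and miR-26a-5p (-0.31, adjusted p = 0.0379 by edgeR) also fell.

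The calls of miR-29a-3p, miR-30b-5p and miR-26a-5p were each lost in several fits with 1 library fewer, while the direction held in all of them. That of miR-29a-3p was lost without caNrf2 library 2 or 3 and with upper-quartile factors (adjusted p between 0.0516 and 0.0753 by edgeR). That of miR-30b-5p was lost without caNrf2 library 2 or 3 or ctrl library 1 or 3 (between 0.0511 and 0.0753). That of miR-26a-5p held without ctrl library 2 but not without each other library, nor without the 5 most abundant other miRNAs (between 0.0514 and 0.149). Without single libraries the log2 fold change lay between 0.29 and 0.40 for miR-29a-3p, between -0.46 and -0.32 for miR-30b-5p and between -0.37 and -0.23 for miR-26a-5p. The called shares of both lists, 4 of 12 and 6 of 15, stand beside 25.7% over all tested miRNAs.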

How the data were processed

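The authors deposited 1 table of raw read counts per mature miRNA name for each library. Per the submitters' processing notes, CASAVA 1.8, cutadapt, Bowtie, featureCounts, edgeR and the mm10 build were used, without their settings. How multiply matching reads were counted is not given in the sources used here. The labels mention no molecular identifiers, so Wilson intervals cover counting error only. miRNAs were filtered with filterByExpr (minimum count 10), scaled by TMM to counts per 1000000 (CPM; sums over marker lists are unscaled) and tested with edgeR 4.0.16 (glmQLFit, glmQLFTest, group as the only term) in R 4.3.3, with Benjamini-Hochberg adjustment at 0.05. SEs came from the F statistic. Arm ratios, log2((5p + 0.5)/(3p + 0.5)), were tested with limma 3.58.1 over all pairs, and single values by exact permutation. DESeq2 1.42.0 was an alternative. Named miRNAs were the arms, near copies, neighbours in level (2 on each side), the 3 most alike in pattern, the 5 pairs with most counts, and up to 4 per fibrosis list by smallest p; further called members of a list were named so that its counts are complete. Members and lists were chosen with earlier results of these data known. Of 1907 names, 1623 had a RefSeq mature sequence. Library pairs of 1 group differed beyond sampling noise (chi-square per degree of freedom at least 116).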

Additional observations from a re-analysis of the deposited data

How the results depend on the processing

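The miR-21a-5p level, 0.03 on the log2 scale, took the opposite sign at -0.0030 with RLE size factors, -0.0030 in DESeq2 and -0.023 with upper-quartile factors, and ran from -0.045 to 0.13 when single libraries were left out; it passed in no alternative (adjusted p from 0.421 to 0.999). The miR-21a-3p level ran from 0.14 to 0.46 without single libraries and passed only with no filter on low counts (log2 fold change 0.31, edgeR adjusted p = 0.0244); the cause was not tested. The arm ratio kept its direction in 12 of 12 alternatives, between -0.38 and -0.12 without single libraries, and was not called in any. The count of called arm pairs was 0 in 11 of 12 alternatives and 1 (miR-335, chosen after its value was seen) without caNrf2 library 1. Called miRNAs ran from 126 to 174 without single libraries, against 179. Both shares kept their direction in 10 of 10 alternatives. The 5p difference of 0.40 percentage points was 1.11 without caNrf2 library 1, 0.029 without caNrf2 library 2 and 0.059 without caNrf2 library 3. With the 5 most abundant other miRNAs left out of the total the 5p difference was 2.32. Shares of that smaller total are larger, so 2.32 and 0.40 are not on the same scale. Calls split 98 higher and 81 lower with TMM and 83 and 95 with upper-quartile factors. Correlations of deviations from the group means were 0.18, 0.11 and -0.22 for replicate numbers 1, 2 and 3. Not every library correlated best with its own number. With 3 libraries a group these deviations are not independent, so the correlations cannot settle whether the numbers pair the libraries. With a replicate block 189 miRNAs were called, and the arms had log2 fold changes of 0.02 (5p) and 0.31 (3p). No call on either arm changed. With 3 libraries a group the test left a 95% interval of 0.857 to 1.22 for the 5p ratio. With all libraries thinned to the smallest library total, the miR-21a-5p log2 fold change was 0.02 with an SE of 0.11. What limited the interval was not tested.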
